A study of Homo sapiens with 10 samples.

Results

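Acute-phase and innate secreted proteins are the plasma and mucosal proteins whose production climbs during infection, injury or inflammation. In the liver they are switched on mainly through interleukin-6, STAT3, C/EBP factors and NF-kB, and many epithelia make a subset of them locally. They bind iron, copper or haemoglobin, mark microbes through complement, or act on lipids and matrix. The 9 genes described here were listed by name: SAA1, SAA2, HP, LCN2, CP, C3, CFB, CHI3L1 and SERPINA3. All 9 were found by symbol among the 19893 genes of the deposited matrix.

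Kuramochi is a human high-grade serous ovarian carcinoma line that carries a BRCA2 mutation, which every group shares, and olaparib is an inhibitor of the PARP enzymes. Persister cells (T10.P and T320.P) had been exposed to olaparib at 10 µM or 320 µM for 9 days, adapted cells (T10.A and T320.A) were resistant populations kept at the same doses, and control cells (C) were drug-naive. How long the adapted populations were selected, and whether they are clones, is not given in the sources used here. Single-cell RNA-seq was run on 2 pools of hashed cells, each holding all 5 conditions, and the counts of all cells of a condition in a pool were added, for 10 sums in total. The 10 GEO samples (8 expression and 2 hashtag libraries) were each of a whole pool, so the condition of a cell was read from its name. The labels do not tie the pools to separate cultures. A p-value therefore reflects only the spread between 2 sums a condition, which may be technical.

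The persister sums were the smallest. They held 300 and 263 cells at 10 µM (pools 1 and 2) and 742 and 606 at 320 µM, against 1831 and 1584 adapted cells at 10 µM, 2038 and 1846 at 320 µM and 2435 and 2155 control cells. Their cells were also the deepest, with a median of 12099.5 and 15213 UMIs (unique molecules) per cell at 10 µM against 8539 and 10000 in control cells. Counts per sum ranged from 3532281 to 23189583 UMIs. Of 13800 cells in all, 13 cell barcodes occurred in both pools. All 11 genes of an epithelial and serous ovarian list were detected over the conditions, with summed levels of 3783 and 3139 CPM in 10 µM persister cells and 5166 and 5310 CPM in control cells, and the lowest in 320 µM adapted cells (1415 and 1283 CPM). Within the list, PAX8, the lineage factor of serous carcinoma, stood at 155 CPM in 10 µM persister and 166 CPM in control cells, SOX17 at 98.2 and 325 CPM, CDH6 at 112 and 507 CPM, and KRT7 at 73.2 and 2.84 CPM. EPCAM was low in both (5.56 and 4.63 CPM).

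Levels are given as CPM, the counts in every 1000000 UMIs, scaled by trimmed mean of M-values, as mean ± SD of the 2 pools (n = 2), and pairs of values are in the order pool 1, pool 2. Tests are edgeR quasi-likelihood tests over 13330 genes with Benjamini-Hochberg adjustment, and a gene is called at an adjusted p under 0.05. A count of 3 UMIs in a sum was taken as the floor, which was 0.849 and 0.801 CPM in the 10 µM persister sums and 0.135 and 0.129 CPM in the control sums before scaling. Intervals and floors cover counting error only.

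In 10 µM persister cells, 8 of the 9 genes were higher than in control cells and the ninth, SERPINA3, had no UMI in either group. HP and CFB passed the filter on low counts only through the 10 µM persister sums, so they had to differ there, and their values against those sums are given as a description. The other 6 genes were all called higher, with log2 changes from 2.80 for CP to 7.54 for LCN2 and a median of 6.91, against −0.03 over all 13330 genes tested. Of all genes tested, 56.6% were called in this comparison and 27.3% were called higher.

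Outside 10 µM persister cells HP, CFB and SERPINA3 were near the floor, and the other 6 genes were counted above it in control cells. The order of the conditions was also not shared. CP alone was called higher than control at both persister doses, though CHI3L1 also lay above control at 320 µM without a call. SAA1 and SAA2 alone were called higher in 320 µM adapted cells than in control cells, and SERPINA3 had UMIs in 10 µM adapted cells alone. The plot of levels by condition shows the 10 sums for each gene.

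**Figure D1:**
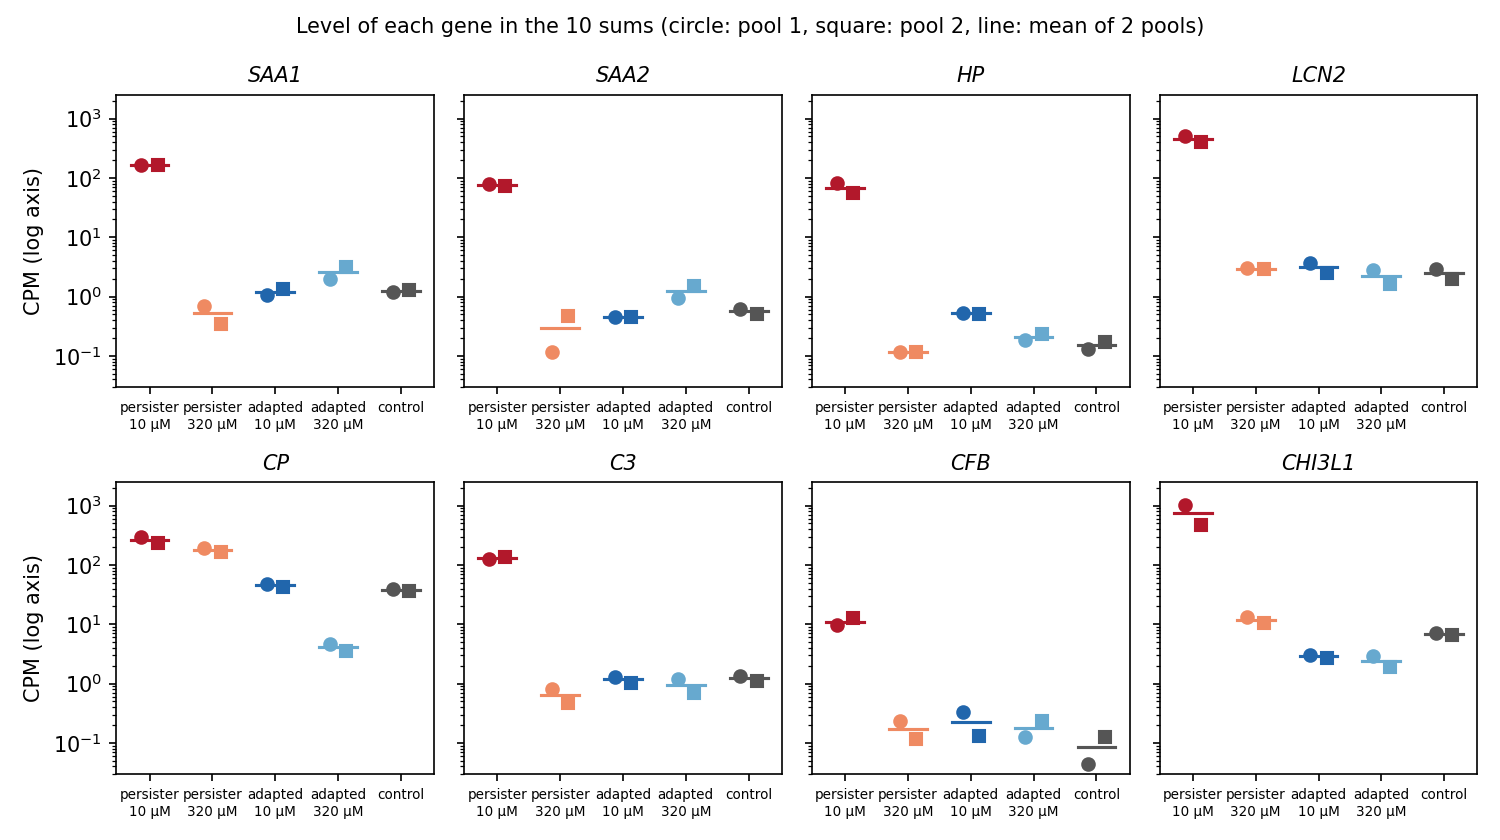
Level (CPM, log axis) of 8 genes in the 10 sums; circles are pool 1, squares pool 2 and lines the mean of both, with control at the right of each panel. SERPINA3 is not drawn because 8 of its 10 sums are at 0. The 10 µM persister sums lie far above control for all 8 genes, and CP is also above control in the 320 µM persister sums (191 and 167 CPM).

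The serum amyloid A genes encode small apolipoproteins that join high-density lipoprotein in the acute phase. They lie close together on chromosome 11 (SAA1 at 18266174 to 18269977 on the plus strand, SAA2 at 18239223 to 18248643 on the minus strand, GRCh38, GENCODE 29). SAA1 had 167 and 167 CPM in 10 µM persister cells, 0.688 and 0.349 CPM in 320 µM persister cells, 1.04 and 1.35 CPM in 10 µM adapted cells, 1.94 and 3.19 CPM in 320 µM adapted cells, and 1.19 and 1.27 CPM in control cells. The 10 µM persister sums were above every other sum, and the 320 µM adapted sums came next. SAA2 had 79.7 and 73.0 CPM in 10 µM persister cells, 0.115 and 0.466 CPM in 320 µM persister cells, 0.457 and 0.451 CPM in 10 µM adapted cells, 0.940 and 1.51 CPM in 320 µM adapted cells, and 0.619 and 0.509 CPM in control cells.

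Both genes rose in 10 µM persister against control cells, with log2 changes of 7.07 ± 0.13 (SE) for SAA1 (adjusted p = 2.39e-27) and 7.06 ± 0.18 for SAA2 (adjusted p = 5.02e-24). Because SAA1 and SAA2 are almost alike in sequence, how reads were divided between them is uncertain. With their counts added the log2 change was 7.08. At 320 µM the persister sums held 6 and 3 UMIs of SAA1 against 27 and 30 in control cells, and SAA1 was called lower (−1.23 ± 0.45, adjusted p = 0.0220). Left out in turn, control pool 2 and 320 µM persister pool 2 each ended that call (adjusted p = 0.0547 and 0.240), as did thinning each cell to 3000 UMIs (0.656) and using a deposited list of cells (0.170).

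SAA1 and SAA2 were higher in 320 µM adapted than in control cells, by log2 changes of 1.06 ± 0.24 (adjusted p = 0.000259) and 1.12 ± 0.35 (adjusted p = 0.00518). Both changes rested on 320 µM adapted pool 2: without it they were 0.65 and 0.73, with adjusted p of 0.0677 and 0.163. They were also lost in thinned cells (0.0867 and 0.506) and in the listed cells (0.187 and 0.186). One cell of that pool held 8 of its 55 SAA1 UMIs. In 10 µM adapted cells neither gene was called (−0.04 ± 0.30 and −0.30 ± 0.46, adjusted p = 0.914 and 0.571).

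HP encodes haptoglobin, which captures free haemoglobin (chromosome 16, 72054592 to 72061055, plus strand), and has a close paralogue, HPR, in the matrix, so that reads may be split between them. It had 318 and 231 UMIs in 10 µM persister cells, 1 and 1 in 320 µM persister cells, 8 and 8 in 10 µM adapted cells, 3 and 4 in 320 µM adapted cells, and 3 and 4 UMIs in control cells. In levels that was 68.8 ± 18.7 CPM in 10 µM persister cells and 0.151 ± 0.0262 CPM in control cells, where 1 sum was at the floor. The summed counts of 549 against 7 UMIs gave a ratio per scaled UMI total of 451 (exact 95% counting limits 217 and 1126). The edgeR log2 change was 8.74 ± 0.25.

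Haptoglobin transcripts were carried by few cells. A single cell held 84 of the 318 UMIs in pool 1 (26.4%) and another 96 of the 231 in pool 2 (41.6%), and without that cell the level per UMI total was 66.5 instead of 90.0 CPM in pool 1 and 36.2 instead of 61.7 CPM in pool 2. HP was also called higher in 10 µM adapted than in control cells (1.72 ± 0.65, adjusted p = 0.0224). That call rests on 8 and 8 against 3 and 4 UMIs, 6 of the 8 in pool 2 were in 1 cell, and it was lost without adapted pool 1, adapted pool 2 or control pool 1 (adjusted p of 0.0768, 0.0733 and 0.0796).

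LCN2 encodes lipocalin 2, which starves bacteria of iron by binding siderophores (chromosome 9, 128149071 to 128153455, plus strand). It had 516 and 398 CPM in 10 µM persister cells, 2.98 and 2.91 CPM in 320 µM persister cells, 3.72 and 2.51 CPM in 10 µM adapted cells, 2.76 and 1.63 CPM in 320 µM adapted cells, and 2.96 and 1.95 CPM in control cells. Apart from the 10 µM persister sums, each condition overlapped control and none was called against it, with log2 changes between −0.17 and 0.35. In 10 µM persister cells the change was 7.54 ± 0.24 (adjusted p = 5.30e-07).

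CP encodes ceruloplasmin, the copper-carrying ferroxidase of plasma (chromosome 3, 149162410 to 149222055, minus strand), and it departed from the rest. It had 297 and 232 CPM in 10 µM persister cells, 191 and 167 CPM in 320 µM persister cells, 48.5 and 42.6 CPM in 10 µM adapted cells, 4.70 and 3.54 CPM in 320 µM adapted cells, and 39.8 and 36.2 CPM in control cells. No 2 conditions overlapped. Control cells held 899 and 854 UMIs of it.

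CP rose at both persister doses, by 2.80 ± 0.15 at 10 µM (adjusted p = 3.98e-06) and by 2.24 ± 0.14 at 320 µM (adjusted p = 1.37e-05), and fell by 3.21 ± 0.22 on the log2 scale in 320 µM adapted cells (adjusted p = 1.14e-05). In 10 µM adapted cells it was 0.26 ± 0.15 above control and not called (adjusted p = 0.171). With the pool as a block the same value was 0.26 and was called (adjusted p = 8.22e-05). Without either 10 µM persister sum it was called as well (adjusted p = 0.0230 and 0.0234).

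C3 is the central component on which all complement pathways converge (chromosome 19, 6677704 to 6730562, minus strand), and CFB, complement factor B, is the protease of the alternative pathway (chromosome 6, 31945650 to 31952084, plus strand). C3 had 126 and 135 CPM in 10 µM persister cells, 0.803 and 0.466 CPM in 320 µM persister cells, 1.31 and 1.03 CPM in 10 µM adapted cells, 1.19 and 0.697 CPM in 320 µM adapted cells, and 1.33 and 1.10 CPM in control cells. Its 2 pools were within 10 CPM of each other in 10 µM persister cells, and the log2 change against control was 6.74 ± 0.14 (adjusted p = 1.23e-26). In 320 µM persister cells C3 lay below both control sums but was not called (−0.92 ± 0.42, adjusted p = 0.0642).

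CFB had 37 and 52 UMIs in 10 µM persister cells, 2 and 1 in 320 µM persister cells, 5 and 2 in 10 µM adapted cells, 2 and 4 in 320 µM adapted cells, and 1 and 3 UMIs in control cells. Both control sums were thus at or under the floor. In 10 µM persister cells the level was 11.0 ± 2.09 CPM, and the ratio of 89 to 4 UMIs per scaled UMI total was 128 (exact 95% counting limits 48.2 and 479). No other condition was called against control.

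CHI3L1 encodes a secreted chitinase-like glycoprotein that binds chitin without cutting it (chromosome 1, 203178931 to 203186749, minus strand). It had 1022 and 468 CPM in 10 µM persister cells, 13.2 and 10.6 CPM in 320 µM persister cells, 3.07 and 2.64 CPM in 10 µM adapted cells, 2.88 and 1.92 CPM in 320 µM adapted cells, and 7.12 and 6.62 CPM in control cells. The 2 sums of 10 µM persister cells were far apart, and the log2 change of 6.76 ± 0.49 against control had an adjusted p of 8.50e-05. One cell of pool 1 held 444 of the 3961 UMIs there, which was 2.43% of all UMIs in that cell.

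The other conditions did not overlap control for CHI3L1 but were not called, with log2 changes of 0.79 ± 0.76 in 320 µM persister, −1.26 ± 0.90 in 10 µM adapted and −1.52 ± 0.92 in 320 µM adapted cells (adjusted p = 0.434, 0.271 and 0.191). These calls depended on the 10 µM persister sums, which are in the common fit. Without pool 1 of them the changes were 0.80, −1.27 and −1.52, with adjusted p of 1.22e-05, 9.49e-08 and 3.32e-09, and without pool 2 they were 0.79, −1.27 and −1.53, with adjusted p of 6.31e-06, 3.74e-08 and 1.37e-09.

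SERPINA3 encodes antichymotrypsin, an inhibitor of neutrophil cathepsin G (chromosome 14, 94612377 to 94624055, plus strand). It had 1 and 6 UMIs in 10 µM adapted cells and none in the other 8 sums, did not pass the filter and was not tested. Of the 6 UMIs in pool 2, 3 were in 1 cell. The 0 of 3532281 and 3745019 UMIs in 10 µM persister cells allow a level of up to 0.849 and 0.801 CPM per UMI total, so a level like that in 10 µM adapted cells (0.226 ± 0.227 CPM) was not detectable there.

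**Figure D2:**
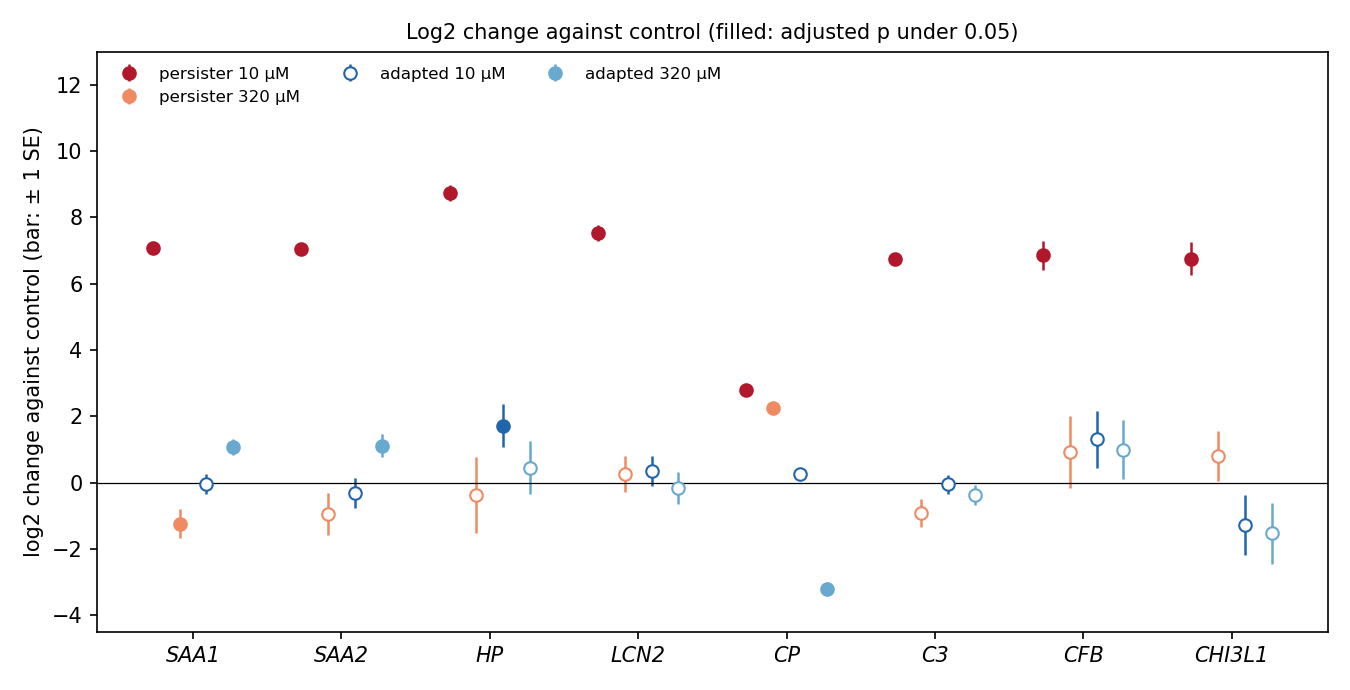
Log2 change of 8 genes in each treated condition against control (edgeR estimate, bar ± 1 SE), filled where the adjusted p was under 0.05. The 10 µM persister points lie between 2.80 and 8.74, while the other 3 conditions lie between −3.21 and 2.24. HP (8.74) and CFB passed the filter on low counts only through the 10 µM persister sums, so their filled points there are a description. Without HP and CFB the highest point is LCN2 at 7.54.

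Promoter sequences came from a RefSeq table that held 4 of the 9 genes. Those of LCN2, CFB and CHI3L1 are shown because they were available, and not as a group apart from the other genes. SERPINA3, also available, had no UMI in 10 µM persister cells and is not printed. Each sequence is the 250 bases before the RefSeq start of the gene (GRCh38.p14), 5′ to 3′ on the gene's strand. Capitals mark matches to NF-kB (a GGG and a TCC with 4 free bases between them), C/EBP (TTGCNNAA), STAT (TTCNNNGAA) and interferon response (a pair of GAAA with 2 free bases between them) letters, searched on both strands, and to the core of the TATA box, spelled out as TATAAA and searched on the gene strand alone. The motifs were chosen after the sequences were seen.
LCN2, chr9:128149203-128149452, plus strand: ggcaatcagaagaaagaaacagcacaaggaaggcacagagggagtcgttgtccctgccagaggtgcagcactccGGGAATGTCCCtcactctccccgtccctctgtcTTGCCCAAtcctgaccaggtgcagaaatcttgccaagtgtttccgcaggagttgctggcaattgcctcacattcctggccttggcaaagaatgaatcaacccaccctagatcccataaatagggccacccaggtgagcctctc
CFB, chr6:31945845-31946094, plus strand: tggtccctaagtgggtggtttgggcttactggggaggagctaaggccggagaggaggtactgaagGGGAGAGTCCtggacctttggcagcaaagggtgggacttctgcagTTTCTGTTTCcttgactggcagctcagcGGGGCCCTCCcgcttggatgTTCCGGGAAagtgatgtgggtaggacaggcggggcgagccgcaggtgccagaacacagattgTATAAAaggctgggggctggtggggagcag
CHI3L1, chr1:203186705-203186954, minus strand: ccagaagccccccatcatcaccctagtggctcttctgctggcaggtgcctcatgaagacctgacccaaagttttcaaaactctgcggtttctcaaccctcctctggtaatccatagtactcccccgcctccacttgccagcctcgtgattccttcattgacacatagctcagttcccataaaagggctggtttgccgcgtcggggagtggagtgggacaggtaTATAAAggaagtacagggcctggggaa

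In LCN2 the NF-kB letters matched on both strands in overlapping places, from base −176 to −166 before the start, and the C/EBP letters matched from −143 to −136. CFB held the NF-kB letters at −185 to −176 and at −112 to −103, the interferon response letters on the minus strand at −140 to −131, the STAT letters at −92 to −84 and a TATA match at −30 to −25. CHI3L1 held a TATA match at −27 to −22, and SERPINA3 held none of these letters. Of 35116 promoters of the same length, 19.9% held the NF-kB letters, 9.05% C/EBP, 6.57% STAT, 3.02% interferon response and 6.80% TATA. A match is a run of letters and not evidence of binding.

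Between adapted and persister cells at 10 µM, the 6 genes that passed the filter without the persister sums were all called lower in adapted cells, with log2 changes from −8.02 ± 0.58 (CHI3L1) to −2.54 ± 0.15 (CP). HP and CFB, described only, stood at −7.02 and −5.55. Of all genes, 60.7% were called and 29.3% were called lower. The adapted levels of SAA1, SAA2, LCN2 and C3 were within 0.35 of control on the log2 scale and not called against it. This comparison shares its persister sums with the one against control, so the falls here and the rises there are not separate evidence.

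At 320 µM the comparison of adapted with persister cells took another course. CP was lower in adapted cells by a log2 change of −5.45 ± 0.20 (adjusted p = 4.10e-07), at 4.12 ± 0.817 CPM in adapted and 179 ± 17.2 CPM in persister cells. SAA1 and SAA2 were higher in adapted cells (2.30 ± 0.40 and 2.06 ± 0.55, adjusted p = 9.92e-06 and 0.00166), with 31 and 55 against 6 and 3 UMIs of SAA1 and 15 and 26 against 1 and 4 UMIs of SAA2. Of all genes, 34.1% were called higher and 32.6% lower, 66.7% in total. The SAA2 call was lost without 320 µM persister pool 1 (1.38, adjusted p = 0.0607). In thinned cells the SAA1 call was lost (1.30, adjusted p = 0.102) and C3 was called higher (2.68, adjusted p = 0.0248). That C3 call rests on 9 and 8 UMIs in adapted against 1 and 0 in persister cells, the latter under the floor. Before thinning C3 was not called (0.55 ± 0.46, edgeR adjusted p = 0.316). CHI3L1 was lower by −2.32 ± 0.98 but not called (adjusted p = 0.0878), and with the pool as a block it was called (−2.30, adjusted p = 0.0284).

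Against control, 1 of 8 genes was called higher (CP) and 1 lower (SAA1) in 320 µM persister cells, where 26.3% of all genes were called higher and 28.3% lower (54.6% in total). In 10 µM adapted cells 1 of 8 was called higher (HP) and none lower, where 33.7% of all genes were called higher and 33.4% lower (67.1% in total), and with the pool as a block 2 of 8 were called higher (HP and CP). No gene of the 8 was lower at an unadjusted edgeR p under 0.05 (0 genes), and DESeq2 called CHI3L1 lower (−1.24, adjusted p = 0.0125). In 320 µM adapted cells 2 of 8 were called higher (SAA1 and SAA2) and 1 lower (CP), where 37.6% of all genes were called higher and 36.9% lower (74.5% in total).

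Dose was compared within each kind of cell. Among persister cells the same 6 genes were all called lower at 320 µM than at 10 µM, where 49.7% of all genes were called and 24.4% were called lower. The 10 µM persister sums are those of the comparison with control, so these falls are not separate evidence. CP differed least, at 179 ± 17.2 CPM at 320 µM and 265 ± 45.6 CPM at 10 µM (−0.56 ± 0.14, adjusted p = 0.0151), a call that was lost without 320 µM persister pool 2 (−0.46, adjusted p = 0.0593). The CP call was also lost in the listed cells (−0.36, edgeR adjusted p = 0.0781). The other 5 had log2 changes from −8.31 (SAA1) to −5.96 (CHI3L1), and HP and CFB, described only, stood at −9.10 and −5.92. HP at 320 µM had 2 UMIs in all, and its ratio per scaled UMI total to 10 µM was 0.00169 (exact 95% counting limits 0.000204 and 0.00614).

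Among adapted cells SAA1 and SAA2 were higher at 320 µM than at 10 µM (1.10 ± 0.27 and 1.42 ± 0.41, adjusted p = 0.000724 and 0.00316) and CP was lower (−3.47 ± 0.22, adjusted p = 1.08e-05), where 33.4% of all genes were called higher and 32.4% lower (65.8% in total). Without 320 µM adapted pool 2 both SAA calls were lost (0.70 and 1.04, adjusted p = 0.0805 and 0.0844). LCN2 was not called (−0.52 ± 0.49, adjusted p = 0.398) but was with the pool as a block (−0.51, adjusted p = 0.0390). The dose effect in adapted cells minus that in persister cells used the 10 µM persister sums again, so it is not separate evidence. This difference was called for the 6 genes that passed the filter without those sums, positive for 5 and negative for CP (−2.91 ± 0.27, adjusted p = 0.000133). Of all genes, 23.4% were called positive and 25.9% negative (49.3% in total). CHI3L1 was the weakest of them (5.70 ± 1.54, adjusted p = 0.0286), and in 7 of the 10 fits that left out 1 sum it was not called.

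Shares of cells were compared after each cell had been thinned to 3000 UMIs, which left out 27 and 25 cells of the 10 µM persister sums and 11 and 18 of the control sums. At least 1 UMI of any of the 9 genes was found in 80.6% and 75.2% of 10 µM persister cells, 37.7% and 40.1% of 320 µM persister cells, 12.2% and 11.1% of adapted cells at 10 µM, 4.01% and 3.22% of those at 320 µM, and 13.5% and 13.7% of control cells. Before thinning the means were 86.7%, 69.3%, 26.6%, 9.77% and 35.6% in the same order. The pools did not overlap between 10 µM persister cells and any other condition, but with 2 sums against 2 an exact permutation test cannot give a two-sided p under 0.333.

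**Figure D3:**
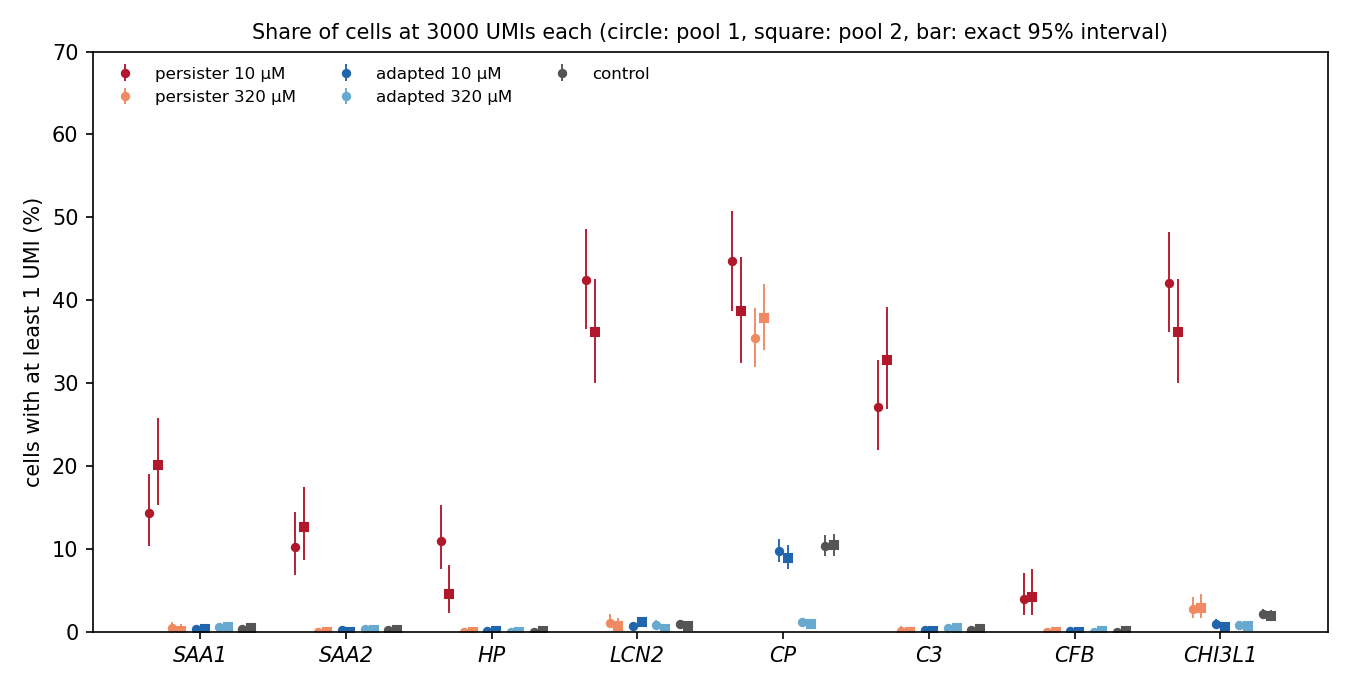
Share of cells (%) with at least 1 UMI of each gene at 3000 UMIs per cell, by condition, with circles for pool 1, squares for pool 2 and exact 95% binomial intervals. CP marks 35.5% and 37.9% of 320 µM persister cells, while every other gene stays under 5% outside 10 µM persister cells.

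LCN2 was found in 42.5% (exact 95% interval 36.6 to 48.6) and 36.1% (30.0 to 42.6) of 10 µM persister cells and in 0.949% and 0.702% of control cells. CHI3L1 was found in 42.1% and 36.1% of 10 µM persister cells against 2.10% and 1.92% of control cells. For C3 the shares were 27.1% and 32.8% in 10 µM persister cells and 0.248% and 0.328% in control cells. SAA1 and HP were rarer, in 14.3% and 20.2%, and in 11.0% and 4.62%, of 10 µM persister cells. CFB was found in 4.03% and 4.20% of them.

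CP was found in 44.7% and 38.7% of 10 µM persister cells, 35.5% and 37.9% of 320 µM persister cells, 9.74% and 8.96% of adapted cells at 10 µM, 1.14% and 0.929% of those at 320 µM, and 10.4% and 10.4% of control cells. The shares thus fell into the same order as the levels except that 10 µM adapted cells were slightly below control, not above it. The most CP UMIs in a cell before thinning were 37 and 31 in 10 µM persister cells, 22 and 21 in 320 µM persister cells, 14 and 11 in 10 µM adapted cells, 6 and 2 in 320 µM adapted cells, and 6 and 6 in control cells.

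No cell type that should lack these genes was present to give the level of free RNA. All 5 conditions of a pool went into the same droplets, so RNA freed from one condition can be counted in cells of another. In control cells 63 of 67 and 44 of 46 LCN2 UMIs were in cells with 1, as were all 27 and 30 SAA1 UMIs and all 30 and 26 C3 UMIs. In 320 µM adapted cells 27 of 31 and 30 of 55 SAA1 UMIs were in cells with 1. Counts this low would mostly be 1 to a cell from any source. UMIs per UMI of LCN2 follow for 10 µM persister, 10 µM adapted, 320 µM adapted, 320 µM persister and control cells, in that order. They were 0.368, 0.385, 1.19, 0.176 and 0.504 for SAA1. For C3 they were 0.287, 0.375, 0.431, 0.216 and 0.496. CHI3L1 stood at 1.62, 0.917, 1.10, 4.04 and 2.81, and CP at 0.579, 14.6, 1.89, 60.9 and 15.5. The part of free RNA in these low levels was not tested.

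Many 10 µM persister cells carried several of the genes. After thinning, 3 or more were found in 31.9% (exact 95% interval 26.4 to 37.8) and 36.1% (30.0 to 42.6) of 10 µM persister cells, and in 0 or 1 cell of each other sum. By the limit of 3 counts, the 0 of 2424 and 2137 control cells allow shares of up to 0.124% and 0.140%. The mean number of the 9 genes per cell was 1.96 and 1.85 in 10 µM persister cells and 0.144 and 0.144 in control cells. Before thinning, 182 of 300 and 158 of 263 of the 10 µM persister cells had 3 or more, against 5 of 2435 and 4 of 2155 control cells.

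**Figure D4:**
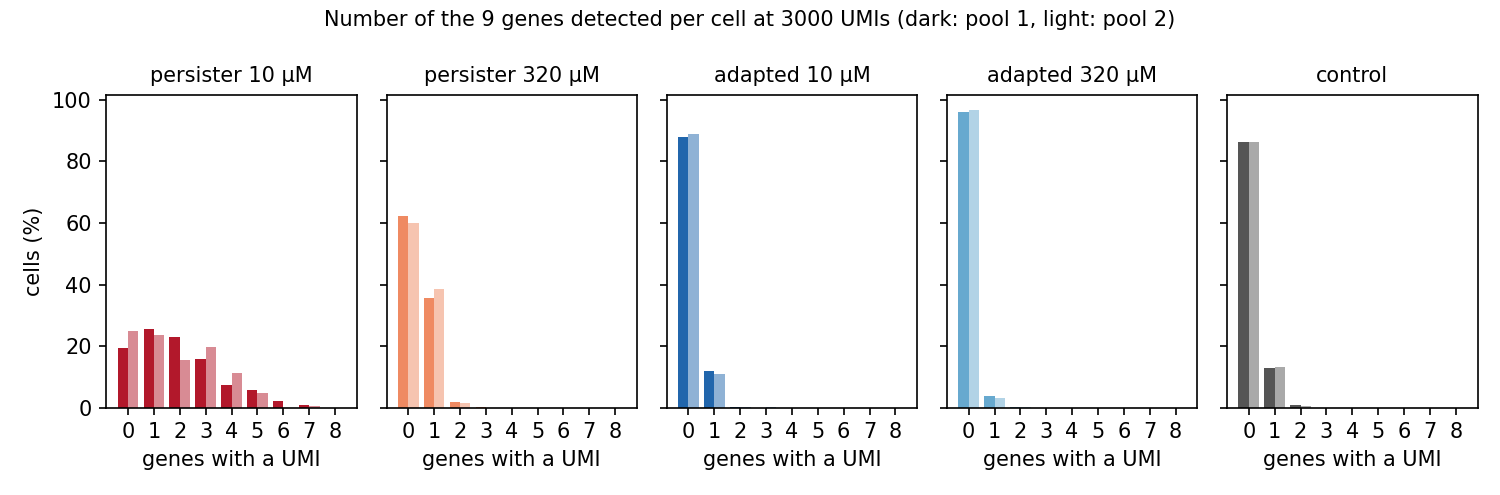
Share of cells (%) by how many of the 9 genes had a UMI, at 3000 UMIs per cell, in each condition (dark bars pool 1, light bars pool 2). In 10 µM persister cells the median was 2 genes and the highest 7, while in control cells 86.5% and 86.3% of cells had none.

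Within 10 µM persister cells the genes were spread unevenly. The richest 5% of cells held 79.2% and 96.1% of HP UMIs, 64.9% and 62.0% of SAA1 UMIs, 68.0% and 66.4% of SAA2 UMIs and 55.3% and 57.3% of CHI3L1 UMIs. C3 was spread the most evenly, with 23.2% and 27.1% in the richest 5% of cells. CFB never passed 4 UMIs in a cell, so its share there reflects how few UMIs it had.

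**Figure D5:**
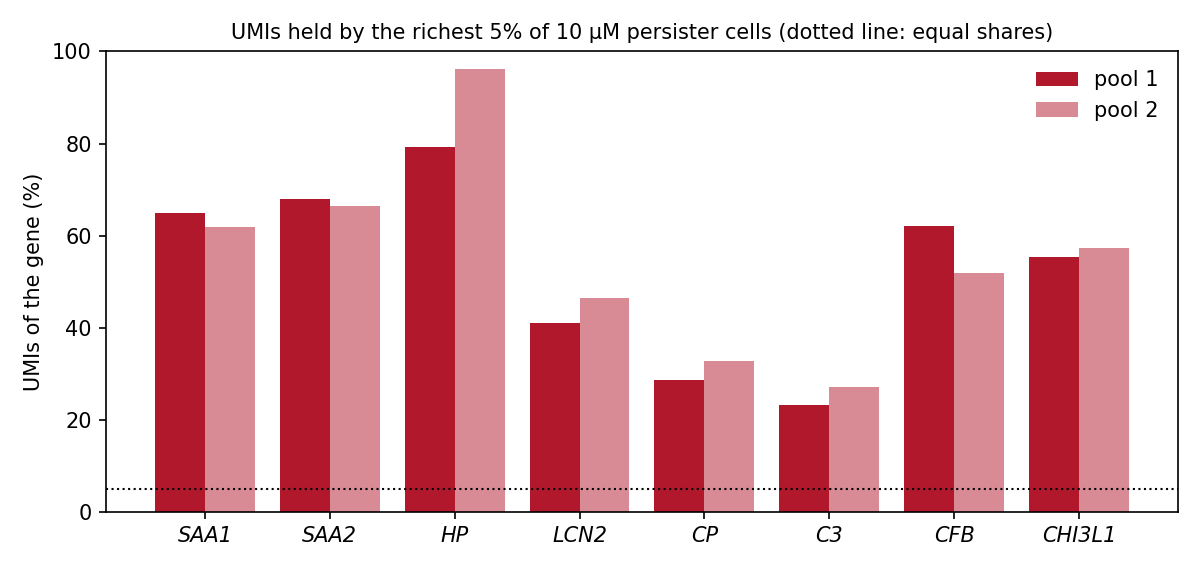
Share of each gene's UMIs (%) held by the richest 5% of 10 µM persister cells, before thinning, in pool 1 (dark) and pool 2 (light); the dotted line is the share under even spread. HP reaches 79.2% and 96.1%, and C3 is lowest at 23.2% and 27.1%.

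Cells with LCN2 more often held the other genes, given here as a description with no test. CHI3L1 had a UMI in 56.0% and 52.3% of the 10 µM persister cells with LCN2, against 31.8% and 27.0% of those without it. For SAA1 the shares were 25.0% and 33.7% with LCN2 and 6.37% and 12.5% without it, and for C3 34.5% and 41.9% with and 21.7% and 27.6% without. Rank correlations over cells are given as a description over 273 and 238 cells that share a pool and a thinned depth. They were weak for SAA1 with LCN2 (0.32 and 0.28) and for LCN2 with CHI3L1 (0.26 and 0.30). For SAA1 with SAA2 they were 0.63 and 0.29, the highest over the 273 cells but not over the 238. For HP with SAA1 they were −0.04 and 0.06.

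The genes whose pattern over the 5 condition means was nearest to each of the 9 were taken from 6643 genes at 20 CPM or more, as the root mean square difference of centred log2(CPM + 1). SAA1 was nearest to SAA2 (0.29), XAF1 (0.31) and RSAD2 (0.34), and SAA2 to S100A8 (0.24), OAS2 (0.26) and PDZK1IP1 (0.28). HP was nearest to OASL (0.09), OAS3 (0.16) and C3 (0.18), and C3 to XAF1 (0.12), OAS3 (0.16) and HP (0.18). LCN2 was nearest to S100A9 (0.27), CXCL8 (0.32) and RSAD2 (0.35). Near CFB were TNFRSF9 (0.09) and ZC3H12A (0.17). CHI3L1 was farther from any gene (IFI6 0.62, IFI27 0.62, LCN2 0.67), as was CP (MAL 0.45, CLDN4 0.62, SPP1 0.67). SERPINA3 was at 0 in 4 conditions, and its neighbours are not given.

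The same shares were taken beside CXCL10, an interferon-induced chemokine. In 10 µM persister cells LCN2 was found in 54.5% and 44.9% of cells with CXCL10 and in 37.8% and 31.9% of cells without it, and CP in 63.6% and 46.2% with it and 37.2% and 35.0% without it. SAA1 was found in 15.6% and 29.5% with CXCL10 and in 13.8% and 15.6% without it.

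Genes of the signalling that drives acute-phase proteins were counted from a list. For this list and those below, which genes passed the filter on low counts only through the 10 µM persister sums was not checked. Their counts and medians in 10 µM persister cells are therefore a description. Of 39 listed ligands, receptors, transcription factors and feedback genes 34 were tested, 23 were called higher and 3 lower than in control, with a median log2 change of 1.26, where 27.3% of all genes were called higher and 29.3% lower. IL6, the main inducer in liver, had 140 ± 10.1 CPM in 10 µM persister cells and 2.37 ± 0.543 CPM in control cells (log2 change 5.87, adjusted p = 8.56e-20). TNF had 82.4 ± 7.49 and 7.80 ± 0.719 CPM (3.40) and NFKBIA, the NF-kB inhibitor that NF-kB itself induces, 920 ± 57.6 and 195 ± 6.84 CPM (2.23), each in 10 µM persister and then in control cells.

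In the other conditions the counts were near the shares over all genes. They were 11 higher and 8 lower in 320 µM persister cells (all genes 26.3% and 28.3%), 14 and 12 in 10 µM adapted cells (33.7% and 33.4%) and 14 and 12 in 320 µM adapted cells (37.6% and 36.9%), with medians of −0.05, 0.02 and 0.04. TNFRSF1A, a receptor of TNF, was higher in 320 µM persister cells (46.4 ± 4.89 against 28.5 ± 0.663 CPM in control), and OSMR, the receptor of oncostatin M, in 10 µM adapted cells (35.8 ± 0.0844 against 12.6 ± 0.456 CPM). JAK1 and IL11RA were lower in 320 µM adapted cells (log2 changes −1.02 and −1.71).

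Of 31 other acute-phase plasma proteins 13 were tested, and 9 were higher and 1 lower in 10 µM persister cells (median 2.05; all genes 27.3% and 29.3%). They included SERPING1, the C1 inhibitor (57.4 ± 2.35 CPM in 10 µM persister and 12.4 ± 0.0344 CPM in control cells, log2 change 2.21), the protease inhibitor A2M (22.0 ± 4.27 CPM in 10 µM persister cells, log2 change 0.87) and the metallothionein MT2A (3134 ± 51.3 and 940 ± 38.0 CPM, 1.74). MT2A was lower than in control in 320 µM persister cells (−2.14) and higher in 10 µM and 320 µM adapted cells (0.73 and 1.27). APOA1, the main protein of high-density lipoprotein, was lower in 320 µM persister (8.58 ± 4.83 CPM) and 320 µM adapted cells (1.51 ± 0.251 CPM) than in control (109 ± 9.93 CPM).

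Of 27 complement components, receptors and regulators other than C3 and CFB 13 were tested, and 10 were higher and 1 lower in 10 µM persister cells (median 1.03; all genes 27.3% and 29.3%). The proteases of the classical pathway were among them: C1S had 63.4 ± 4.05 CPM in 10 µM persister and 2.45 ± 0.103 CPM in control cells (log2 change 4.69), and C1R 29.6 ± 0.0746 and 1.59 ± 0.749 CPM (4.20). Of the surface regulators that shield cells from complement, CD59 was higher (217 ± 9.90 and 119 ± 0.439 CPM, 0.86) and CD46 lower (74.9 ± 0.474 and 106 ± 9.46 CPM, −0.50). CD55, another of these regulators, was 5.23 higher on the log2 scale in 320 µM adapted than in control cells (23.9 ± 0.722 and 0.630 ± 0.172 CPM).

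All 13 tested genes of 24 other secreted innate defence proteins were higher in 10 µM persister cells, with a median log2 change of 6.11, where 27.3% of all genes were called higher. The rest of the list did not pass the filter, which genes high in 10 µM persister cells alone can pass. This count and median thus depend in part on the filter. MMP7, given below, was near the floor in control cells. SLPI, an inhibitor of neutrophil elastase, had 10615 ± 1532 CPM in 10 µM persister and 357 ± 7.77 CPM in control cells (4.89), PI3, another elastase inhibitor, 724 ± 123 and 10.4 ± 0.734 CPM (6.11), SPP1 (osteopontin) 1316 ± 83.8 and 146 ± 5.50 CPM (3.17), and MMP7 25.1 ± 4.95 and 0.153 ± 0.0964 CPM (7.28). In 10 µM adapted cells 5 were higher and none lower (all genes 33.7% and 33.4%), SLPI among them (1607 ± 10.8 CPM, 2.17) and WFDC2 (1379 ± 0.0863 against 267 ± 4.43 CPM, 2.37). In 320 µM adapted cells 3 were higher and 2 lower (all genes 37.6% and 36.9%), with SPP1 at 12.4 ± 0.235 CPM (−3.56).

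Of 19 receptors and partners of these proteins 9 were tested, and 4 were higher and 2 lower in 10 µM persister cells (median 0.37; all genes 27.3% and 29.3%). CD44 was higher than in control in every treated condition, at 87.3 ± 5.30 CPM in 10 µM persister, 172 ± 0.804 CPM in 320 µM persister, 74.5 ± 1.56 CPM in 10 µM adapted, 383 ± 11.4 CPM in 320 µM adapted and 16.6 ± 0.000809 CPM in control cells. SLC22A17, a receptor of LCN2, was higher in 320 µM adapted cells (26.5 ± 1.18 and 2.24 ± 0.485 CPM, log2 change 3.55).

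Markers of other cells that make these proteins were counted beside them. Of 10 hepatocyte genes, 2 had a UMI in each 10 µM persister sum, none of them above the floor, and the list summed to 1.03 and 0.961 CPM in 10 µM persister and 0.354 and 0.255 CPM in control cells, with APOB, TTR, FGB and CYP3A4 at 0 in all conditions. Of 12 leukocyte genes, 4 and 3 had a UMI in the 10 µM persister sums, and the list summed to 12.6 and 14.9 CPM in 10 µM persister and 1.19 and 1.15 CPM in control cells. Nearly all of it was CD68 (12.4 against 0.626 CPM), a lysosomal gene that other cells also express, while PTPRC, the pan-leukocyte marker, stood at 0.369 CPM in 10 µM persister cells and 0.0221 CPM in control cells. The 6 mesothelial genes, with ITLN1 at 0 throughout, summed to 178 and 185 CPM in 10 µM persister, 101 and 105 CPM in 320 µM persister, 37.1 and 35.5 CPM in 10 µM adapted, 3.82 and 3.89 CPM in 320 µM adapted and 134 and 128 CPM in control cells. Most of that sum was MSLN, at 131 CPM in 10 µM persister and 85.7 CPM in control cells, while CALB2 had no UMI in 10 µM persister cells. The 8 fibroblast genes summed to 33.3 and 34.6 CPM in 10 µM persister, 39.7 and 34.5 CPM in 320 µM persister, 242 and 230 CPM in 10 µM adapted, 128 and 122 CPM in 320 µM adapted and 37.4 and 37.4 CPM in control cells, mostly THY1 and, in 10 µM adapted cells, COL1A1. The part of these markers in the levels of the 9 genes was not tested.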

How the data were processed

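The deposited matrix holds raw UMI counts of 13800 cells, not normalized by the authors; other deposited values (cell names, barcodes) were used only to match cells. Droplet libraries were hashed and pooled, per the labels' protocols. Per the submitters' processing notes, the tools were Cell Ranger 3.1 and Seurat and the build hg38. The sources used here state neither cell filters nor doublet removal, and no doublet caller was run.

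Counts were summed per condition and pool, filtered with filterByExpr and tested with edgeR 4.0.16 (robust quasi-likelihood, trimmed mean of M-values factors 0.868 to 1.11, all 10 sums in 1 fit with 5 residual degrees of freedom) in R 4.3.3; DESeq2 1.42.0 was an alternative. The code was tested on simulated data. Pools pair the sums: differences between pools correlated between conditions at 0.338 to 0.612 over 2730 genes. The main fit nevertheless held no term for the pool, and a fit with the pool as a block served as an alternative. Shares were computed in Python 3.11.15 with numpy 2.4.6 after thinning. The genes, lists and markers were chosen with earlier results of these data known. Named genes were all 9 members, up to 4 called genes per list with the lowest p in 10 µM persister against control cells and 2 in each other comparison with control, at 20 CPM or more. CXCL10 was chosen later, outside that rule. A deposited list of 7762 cells (56.2%), whose purpose is not stated, served as an alternative. Some genes that meet the rule for named genes, or lie near a member in pattern, are not reported here.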

Additional observations from a re-analysis of the deposited data

Results flagged for a closer look

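For the 6 genes that passed the filter without the 10 µM persister sums, the effect of dose (320 µM over 10 µM) differed between adapted and persister cells. The edgeR test was of the difference itself, with n = 2 sums a condition. It used the same 10 µM persister sums as the comparisons above, so it is not separate evidence. The log2 difference, adapted minus persister, was 9.41 for SAA1 (adjusted p = 2.97e-18), 9.43 for SAA2 (1.84e-14), 6.75 for LCN2 (0.000390), 7.34 for C3 (6.35e-13) and 5.70 for CHI3L1 (0.0286). HP and CFB entered the test only through the 10 µM persister sums, so their differences of 7.84 and 5.61 are a description. These 7 genes were lower at 320 µM than at 10 µM among persister cells. Among adapted cells SAA1 and SAA2 were higher at 320 µM than at 10 µM (1.10 and 1.42). For LCN2, C3 and CHI3L1 that change among adapted cells was −0.52, −0.32 and −0.26 and was not called in the main fit. For CP the difference was −2.91 (adjusted p = 0.000133), with persister cells of both doses above control and a fall at 320 µM among adapted cells. In this comparison 23.4% of all genes were called positive and 25.9% negative. The HP difference was not called in thinned cells (7.04, adjusted p = 0.9998), nor was CHI3L1 in thinned or listed cells (adjusted p = 0.0627 and 0.0543).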

How the results depend on the processing

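HP and CFB, whose calls the filter fixed, and the other 6 genes were called higher in 10 µM persister than in control cells under each of the 18 alternatives, and lower in 10 µM adapted than in 10 µM persister cells, and no called log2 change reversed sign. For 320 µM persister against control, 2 genes were called higher with only the compared sums, 0 lower with thinned cells or the listed cells and 2 lower with SAA1 and SAA2 added, which are then 1 combined feature counted under both names. For 10 µM adapted against control, 3 were higher with no filter, 2 with the pool as replicate block or DESeq2 and 0 with thinned or listed cells, and 1 was lower with the compared sums or DESeq2. The 3 with no filter were HP, CP and SERPINA3, which the main fit did not test (1 and 6 UMIs against 0 and 0 in control). For 320 µM adapted against control, 0 were higher with thinned or listed cells and 2 lower with the compared sums or DESeq2. Between adapted and persister cells at 320 µM, 2 were lower with the replicate block, the compared sums or DESeq2, and in thinned cells C3 took the place of SAA1 among the 2 higher. Between adapted doses, 0 were higher with thinned or listed cells and 2 lower with no filter, the block or thinned cells. With no filter, SERPINA3 was 1 of those 2. Leaving out each sum gave 1 to 2 higher and 0 to 1 lower in 320 µM persister, 0 to 2 higher and 0 to 1 lower in 10 µM adapted, and 0 to 2 higher and 1 to 2 lower in 320 µM adapted cells against control. It gave 1 to 2 higher and 1 to 2 lower between adapted and persister cells at 320 µM, and 0 to 2 higher between adapted doses. The causes were not tested. Scaling by library totals alone moved the median log2 change of all genes by 0.12 for 10 µM persister and −0.23 for 320 µM adapted against control, −0.19 and −0.28 between adapted and persister cells at 10 and 320 µM, and −0.16 between adapted doses.

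The share of cells with any of the genes, at 77.9%, 38.9%, 11.7%, 3.62% and 13.6% (10 and 320 µM persister, 10 and 320 µM adapted, control), was 86.7%, 69.3%, 26.6%, 9.77% and 35.6% without thinning and 54.9%, 17.9%, 4.47%, 1.29% and 5.44% at 1000 UMIs. In listed cells it was 43.9% for 320 µM persister, 12.6% for 10 µM adapted and 14.5% for control cells. Depth limits genes near the floor of 3 UMIs, above all HP, CFB and SERPINA3 outside 10 µM persister cells.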
